A study of Homo sapiens with 6 samples.

Results

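The SERINC family is the set of 5 genes SERINC1 to SERINC5, which encode the serine incorporators, and all 5 were found by name among the 58735 genes of the deposited tables. The tables come from RNA-seq of poly(A) RNA from MOLT-3, an established T-cell acute lymphoblastic leukaemia line, so both groups stand for 1 cell line. The study compared 3 libraries from cells treated with compound E with 3 from cells treated with DMSO, the solvent, to look for genes under the control of NOTCH1. Compound E inhibits gamma-secretase, the protease that frees the active intracellular part of NOTCH receptors. No source used here gives its dose or the length of treatment. Nothing in the labels shows whether the 3 replicates of a group were grown separately, so a p-value here reflects the spread of these 6 libraries, which may be technical.

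Serine incorporators are proteins with many membrane-spanning helices that sit in the plasma membrane and in inner membranes. They were named for a proposed role in bringing serine into phosphatidylserine and sphingolipids, and later work described them as scramblases, which let lipids pass between the leaflets of a membrane. SERINC5, and more weakly SERINC3, are best known as restriction factors of T cells: built into retroviral particles, they lower infectivity, and the Nef protein of HIV removes SERINC5 from the cell surface through the AP-2 clathrin adaptor.

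The libraries held 18154037 to 18973990 counts with compound E and 17316138 to 19845114 counts with DMSO. All 9 T-cell markers examined were expressed, with a summed level of 1052 to 1068 FPKM with compound E and 1171 to 1188 FPKM with DMSO, and 3 of them were called higher and 5 lower. Whether this has a part in the results on the SERINC genes was not tested. FPKM is the authors' value per gene length and sequencing depth. The 15 markers of B cells, myeloid cells, red cells and epithelium summed to 9.45 to 10.2 FPKM with compound E and 9.49 to 10.7 FPKM with DMSO, and MS4A1, MPO and HBB were at 0 in all libraries. Most of that sum was CD79A, a B-cell receptor gene, at 8.58 to 9.26 FPKM with compound E and 8.18 to 9.34 FPKM with DMSO. Of 16926 genes with enough counts to test, 38.3% were called, 18.9% higher and 19.4% lower with compound E, where a call means a Benjamini-Hochberg adjusted p below 0.05 by edgeR's quasi-likelihood test.

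The family was proposed with the difference between these groups already known, and its members are therefore described by their values, with no p-value. Their calls in the fit over all genes are counted once. The genes lie on GRCh38 at chr6:122443354-122471822, minus strand (SERINC1), chr1:31409565-31434680, plus strand (SERINC2), chr20:44496221-44522109, minus strand (SERINC3), chr15:43794162-43800221, minus strand (SERINC4), and chr5:80111651-80256079, minus strand (SERINC5). SERINC5 is spread over 144429 bases, against 25116 to 28469 bases for SERINC1, SERINC2 and SERINC3 and 6060 bases for SERINC4. The values are per gene, and for genes with several annotated transcripts (6 each for SERINC2, SERINC4 and SERINC5, 4 for SERINC3) they do not show which of them differed.

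The sequences just before the start sites of the members that differed between the groups are shown to place 4 short motifs, searched on both strands in RefSeq promoter windows (GRCh38.p14) that run from 250 bases before to 50 bases after a start. These were TGGGAA, the core bound by RBPJ, the DNA-binding partner of NOTCH, which 24.0% of all 35116 windows hold, CACGTG, the E-box of MYC (7.26%), TGATGNAA, an element of ATF4 (3.62%), and GGGCGG, the GC box (45.0%), the last one added after the sequences were seen. Only bases outside annotated exons are printed, 5′ to 3′ on the gene's strand, with matches in capitals.
SERINC5, chr5:80256080-80256298: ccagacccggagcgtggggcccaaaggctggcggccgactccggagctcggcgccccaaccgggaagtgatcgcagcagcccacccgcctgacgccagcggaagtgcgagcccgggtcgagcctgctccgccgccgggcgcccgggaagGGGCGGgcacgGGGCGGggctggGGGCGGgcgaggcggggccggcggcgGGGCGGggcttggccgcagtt
SERINC2, chr1:31409903-31410152: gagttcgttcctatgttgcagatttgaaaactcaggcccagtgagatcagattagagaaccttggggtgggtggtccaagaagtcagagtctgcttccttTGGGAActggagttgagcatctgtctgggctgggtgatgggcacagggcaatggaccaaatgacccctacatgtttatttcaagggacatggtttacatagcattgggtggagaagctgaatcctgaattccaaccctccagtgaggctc
SERINC3, chr20:44522110-44522320: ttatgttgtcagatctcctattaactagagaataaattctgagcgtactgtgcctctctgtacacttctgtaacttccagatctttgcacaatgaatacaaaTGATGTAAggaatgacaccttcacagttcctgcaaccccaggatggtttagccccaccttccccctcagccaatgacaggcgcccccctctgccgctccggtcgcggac
The SERINC5 stretch was 80.4% G and C and held 4 GC boxes, with 0 matches to the other motifs. GC boxes also lay in the windows of SERINC1 (1) and SERINC3 (1) and in 2 of the SERINC2 windows (2 and 1), with 0 in that of SERINC4. SERINC2 has 4 windows, and only the one with a TGGGAA is printed, with 144 bases between the motif and the start. It was the only 1 of the family's 8 windows with that motif, beside 24.0% of all windows. The printed SERINC3 stretch was 49.3% G and C and held the only match to the ATF4 element in the family, with 140 bases between it and the start. All 5 members had a window, and 0 windows of the family held CACGTG. Which SERINC2 start these cells use is not shown by the counts, and a match does not show binding.

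SERINC5 was the member with the largest difference. Its level was 9.66, 10.4 and 9.79 FPKM in the compound E libraries and 30.0, 30.0 and 30.7 FPKM in the DMSO libraries. All 3 compound E libraries lay at about the same low level, far below every DMSO library. The deposited counts behind these values were 1700, 1812 and 1770 with compound E and 5588, 5752 and 5129 with DMSO. After TMM scaling to CPM, the count relative to library size, SERINC5 averaged 95.8 ± 3.91 CPM with compound E and 292 ± 3.79 CPM with DMSO (SD, n = 3 each), a log2 fold change of -1.61 ± 0.0325 (SE), or 3.05-fold lower. Over all 16926 tested genes, 167 had a larger fall than SERINC5, whether called or not, which is a description and no test. In bulk RNA, fewer cells with a transcript and less of it per cell cannot be told apart.

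SERINC2, a member that has been studied mostly in epithelial and liver tumours, differed in the other direction. It was at 6.58, 7.02 and 6.78 FPKM with compound E and at 4.43, 4.17 and 4.64 FPKM with DMSO. The lowest compound E library was above the highest DMSO library, and in both groups it had the lowest level of the 4 members with counts. Counts were 429, 452 and 455 with compound E and 306, 296 and 288 with DMSO, and the log2 fold change was 0.62 ± 0.0713 (SE), or 1.53-fold higher. Its biological coefficient of variation, as edgeR estimated it over both groups, was 3.54%, against 2.07% to 2.30% for SERINC1, SERINC3 and SERINC5.

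SERINC3, which with SERINC5 restricts retroviruses, showed a small and uniform difference. Its level was 46.1, 47.0 and 46.8 FPKM with compound E and 51.5, 51.5 and 50.8 FPKM with DMSO. The groups did not overlap, though they lay close together. It averaged 219 ± 2.00 CPM with compound E and 242 ± 1.63 CPM with DMSO (SD, n = 3 each), a log2 fold change of -0.14 ± 0.0283 (SE), or 1.10-fold lower. SERINC1, a widely expressed member that has no strong effect on HIV, was at 26.5, 27.7 and 28.2 FPKM with compound E and at 27.7, 27.6 and 28.6 FPKM with DMSO. Its groups overlapped, and its log2 fold change was -0.03 ± 0.0383 (SE).

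Of the 4 members with enough counts to test, 1 was called higher, 2 were called lower and SERINC1 was not called, beside 38.3% of all tested genes called in either direction. In 3 of the 4 the groups did not overlap, beside 46.8% of all tested genes. Because this contrast was known when the family was proposed, nothing is read from these counts.

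**Figure D1:**
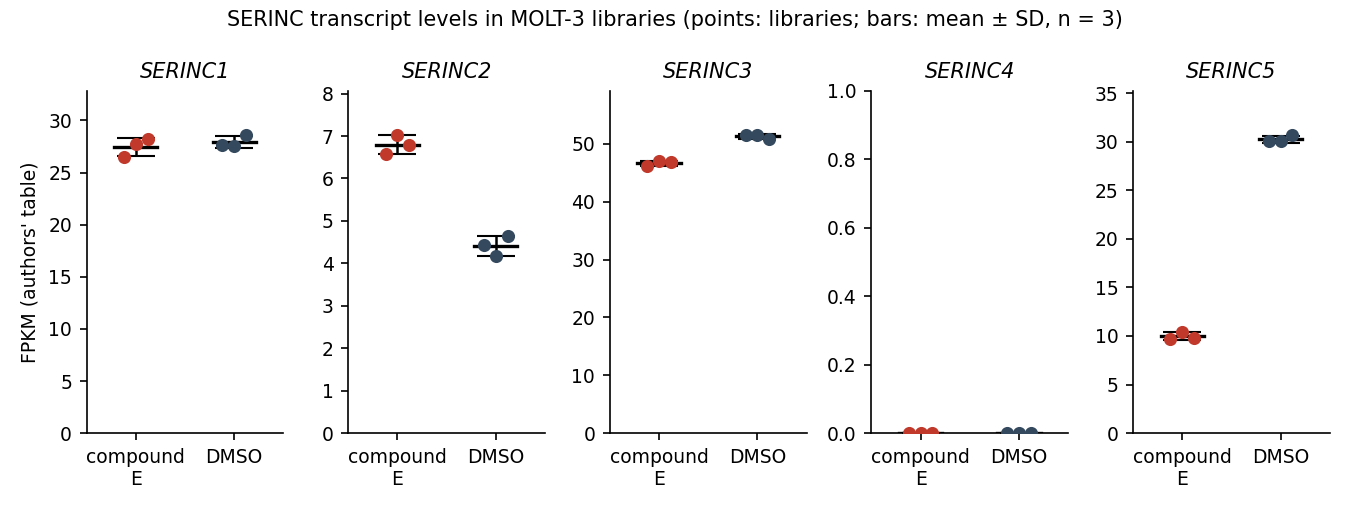
FPKM of each SERINC gene in 3 compound E libraries (red, left) and 3 DMSO libraries (dark, right), with a separate axis starting at 0 in each panel, and the mean ± SD as bars. SERINC5 lies at 9.66 to 10.4 FPKM with compound E and 30.0 to 30.7 FPKM with DMSO, SERINC1 overlaps between the groups, and SERINC4 is at 0 in all 6 libraries.

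SERINC4 was listed at 0 counts in all 6 libraries. All of its 2977 exon bases coincide with exons of other genes: in GENCODE release 29, 64.2% with SERF2 and 55.4% with HYPK, both on the opposite strand, and 25.8% with AC018512.1 on its own strand. On the opposite strand alone, 100% of its exon bases were covered. Across the table, 1894 genes shared every exon base with another gene on either strand. Of them 95.8% were at 0 in every library, and the largest count of any was 5, whereas 41.2% of the 56841 other genes were at 0. Among 731 genes that, like SERINC4, shared less than 50% of their exon bases on their own strand, the share at 0 was 99.6% and the largest count was 2. Among protein-coding genes, 76.9% of the 312 with every exon base shared were at 0, against 16.7% of 19639 others. For the 22 protein-coding genes that shared less than 50% on their own strand, the share at 0 was 90.9%, and their largest count was 2. The 0 of SERINC4 therefore sets no upper limit on its RNA. Exons of SERINC1, SERINC2 and SERINC3 share 0% of their bases with other genes, and those of SERINC5 share 2.73%.

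Compared per length, the order of the members was not the same in both groups. With compound E the order from the highest level was SERINC3 (46.6 ± 0.471 FPKM), SERINC1 (27.4 ± 0.869), SERINC5 (9.96 ± 0.414) and SERINC2 (6.79 ± 0.221), and with DMSO it was SERINC3 (51.3 ± 0.373 FPKM), SERINC5 (30.2 ± 0.369), SERINC1 (27.9 ± 0.559) and SERINC2 (4.41 ± 0.239; SD, n = 3 each). In both groups each member's range was clear of the next one's. The ratio of SERINC5 to SERINC1 in FPKM was 0.347 to 0.377 in the compound E libraries and 1.07 to 1.09 in the DMSO libraries. FPKM divides by all annotated exon bases, 9570 for SERINC5 and 3137 for SERINC1, and which transcripts these cells use is not shown. In CPM, without that division, SERINC5 averaged above SERINC1 in both groups, at 95.8 and 86.5 with compound E and 292 and 88.5 with DMSO. Among protein-coding genes with a mean FPKM above 0, SERINC5 was above 71.1% with compound E and above 91.8% with DMSO. SERINC3 was above 95.4% with compound E and 96.1% with DMSO, and SERINC2 above 62.2% with compound E and 53.7% with DMSO.

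The summed level of the family was 90.8 ± 1.77 FPKM with compound E and 114 ± 0.774 FPKM with DMSO (SD, n = 3 each). SERINC5 made up 11.0% ± 0.324 of that sum with compound E and 26.6% ± 0.154 with DMSO. SERINC3 made up 51.3% ± 0.486 with compound E and 45.0% ± 0.627 with DMSO, so it was the largest part of the family in both groups. SERINC1 accounted for 30.2% ± 0.503 with compound E and 24.5% ± 0.326 with DMSO, and SERINC2 for 7.48% ± 0.121 with compound E and 3.88% ± 0.185 with DMSO. A member's share depends on the others, and the larger shares of SERINC1 and SERINC3 with compound E go with FPKM values that were not higher. The shares also depend on the annotated exon lengths by which FPKM divides.

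**Figure D2:**
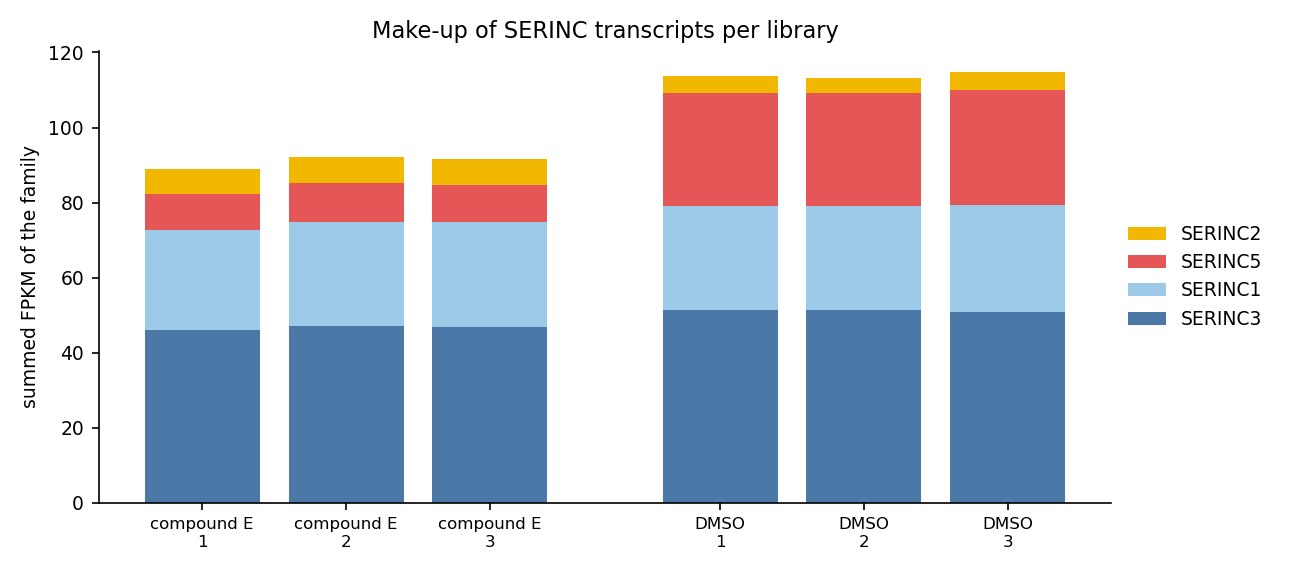
Summed FPKM of the SERINC genes in each library, 3 with compound E on the left and 3 with DMSO on the right, stacked by gene. The red SERINC5 part is 9.66 to 10.4 FPKM high with compound E and 30.0 to 30.7 FPKM high with DMSO, while the SERINC3 and SERINC1 parts differ little.

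Genes next to the members were examined by position, taking every gene that overlaps a member and the nearest protein-coding gene on each side. Of 15 such genes 11 could be tested, and 3 were called higher and 3 lower by edgeR, beside 38.3% of all tested genes called, 18.9% higher and 19.4% lower. At the SERINC5 locus both tested neighbours were lower, and 1 of them, AC010260.1, overlaps SERINC5 itself. THBS4, which encodes a thrombospondin of the extracellular matrix and ends 28363 bases beyond the 3′ end of SERINC5, had 14, 13 and 13 counts with compound E and 46, 50 and 38 counts with DMSO. It fell by 1.70 ± 0.259 (SE) on the log2 scale (edgeR adjusted p = 1.04e-06). AC010260.1, an antisense gene inside SERINC5, had 15, 20 and 15 counts with compound E and 44, 45 and 32 with DMSO and fell by 1.23 ± 0.257 (SE) on the log2 scale (edgeR adjusted p = 0.00016). It shares 261 exon bases with SERINC5, 39.3% of its own, and no source used here says whether counting used the strand. Of the 731 genes with every exon base shared, under 50% of them on their own strand, 99.6% were at 0. Their largest count was 2, so AC010260.1 is not one of them, and their share at 0 does not describe it. AC010260.1 lies wholly within the span of SERINC5, and whether reads from SERINC5 RNA were counted to it was not tested, so its value is uncertain. CTD-2201I18.1, antisense to the end of THBS4 and named after its values were seen, fell by 1.80 ± 0.330 (SE) on the log2 scale (edgeR adjusted p = 2.42e-05), and it shares 132 exon bases with THBS4. All 3 were at low levels, averaging 0.725, 0.908 and 0.491 CPM with compound E and 2.37, 2.13 and 1.73 CPM with DMSO, in the order named. SPZ1, on the far side of SERINC5, had at most 1 count per library.

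At the SERINC3 and SERINC2 loci the called neighbours lay on the other side of 0 from the member, a difference that was not tested. TTPAL, a transfer protein of the tocopherol type, and PKIG, an inhibitor of protein kinase A, flank SERINC3 and rose by 0.20 ± 0.0453 and 0.15 ± 0.0481 (SE) on the log2 scale (edgeR adjusted p = 0.000515 and 0.00962), whereas SERINC3 was lower. The call of PKIG was lost without compound E replicate 2 (edgeR adjusted p = 0.0605). TINAGL1, a matrix protein gene 141804 bases beyond the end of SERINC2, had 12, 12 and 14 counts with compound E and 40, 30 and 26 with DMSO. Its level was low, averaging 0.688 CPM with compound E and 1.70 CPM with DMSO. It fell by 1.30 ± 0.290 (SE) on the log2 scale (edgeR adjusted p = 0.000384), whereas SERINC2 was higher. FABP3, a fatty acid binding protein gene on the other side of SERINC2, had a log2 fold change of -0.08 ± 0.247, and HSF2, a heat shock factor gene next to SERINC1, of 0.06 ± 0.0511, and neither was called (edgeR adjusted p = 0.831 and 0.366). Around SERINC4, SERF2 (0.04 ± 0.0360), HYPK (-0.09 ± 0.178) and MFAP1 (0.10 ± 0.0454) were not called (edgeR adjusted p = 0.448, 0.732 and 0.0813). ELL3, an elongation factor gene, was at 0.64 ± 0.254 with an edgeR adjusted p of 0.0445, a call that was lost with DESeq2 (adjusted p = 0.147) and without compound E replicate 2 or 3 or DMSO replicate 1 or 3 (edgeR adjusted p of 0.0723 to 0.192).

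**Figure D3:**
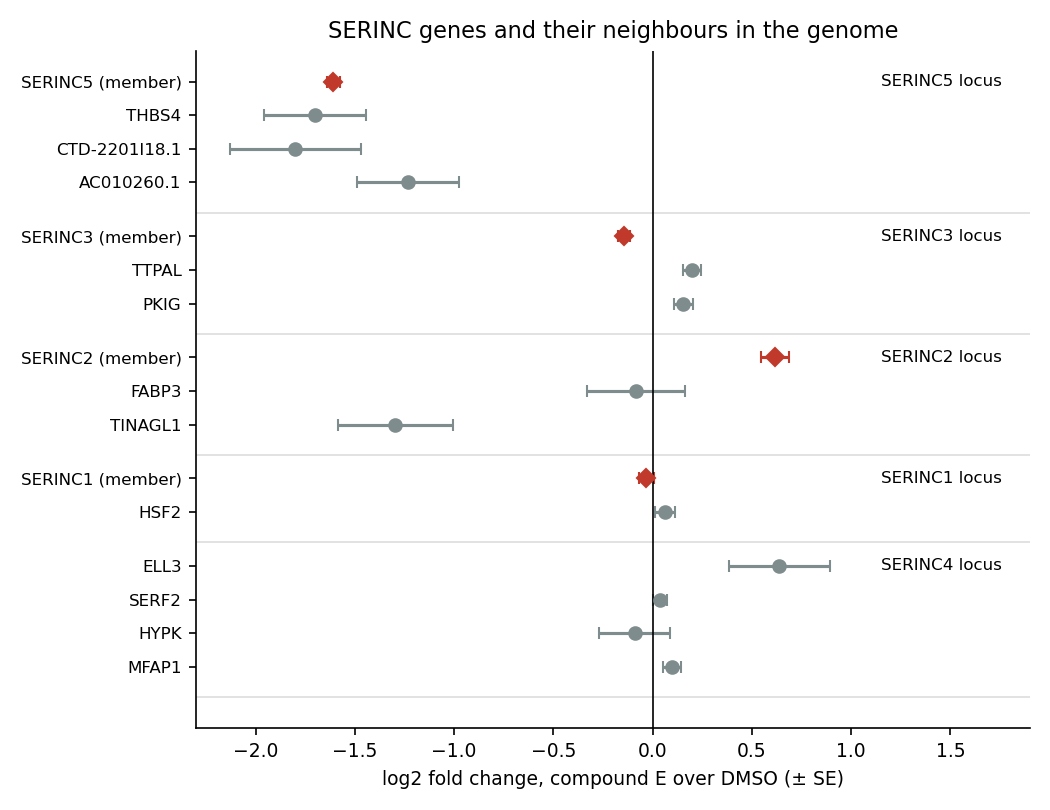
Log2 fold change of compound E over DMSO with its SE for the SERINC genes (red diamonds) and the tested genes beside them (grey circles), grouped by locus. At the SERINC5 locus THBS4 (-1.70) and AC010260.1 (-1.23) lie on the same side of 0 as SERINC5 (-1.61). AC010260.1 overlaps SERINC5 and shares 261 exon bases with it, so its value is uncertain. CTD-2201I18.1 (-1.80), which was chosen after its values were seen, also lies on that side. TTPAL and PKIG lie on the other side of 0 from SERINC3.

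Genes with the most similar pattern were sought among 11951 tested protein-coding genes averaging 1 CPM or more, by the root mean square difference of centred log2 CPM over the 6 libraries. For SERINC5 these were MTHFD2, of mitochondrial folate metabolism (0.0260 log2 units), LZTFL1, a regulator of traffic to cilia (0.0313), and CD40LG, the CD40 ligand of activated T cells (0.0367). MTHFD2 averaged 110 ± 4.12 CPM with compound E and 333 ± 5.07 CPM with DMSO, and CD40LG 19.6 ± 0.420 CPM with compound E and 58.4 ± 0.945 CPM with DMSO (SD, n = 3 each). The genes most like SERINC2 were HSP90B1, a chaperone of the endoplasmic reticulum (0.0278), HMMR, a hyaluronan receptor that also binds the mitotic spindle (0.0322), and PIK3R3, a regulatory subunit of PI3K (0.0351). Those most like SERINC3 included SLC25A3 and VANGL1 (0.00888 and 0.00975), and those most like SERINC1 were CCT5, COX4I1 and SNRPF (0.0126 to 0.0146). With 2 groups of 3, such likeness mainly reports a similar difference between the groups.

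The family is named for the amino acid serine. Genes for its synthesis, interconversion and uptake, listed here as serine supply, were called lower in 9 of 13 tested cases with compound E. The list also holds enzymes that use serine, such as SHMT2. Over all tested genes 19.4% were called lower. The list was chosen with earlier results of these data known. Of 16 listed genes for serine synthesis, interconversion and uptake 13 could be tested, and 9 fell, 1 rose and 3 were not called, beside 38.3% of all tested genes called. The list's median log2 fold change was -0.60, against -0.0034 over all tested genes. PSAT1, the aminotransferase of serine synthesis, fell by 1.93 ± 0.0337 (SE) on the log2 scale, with 79.5 CPM in compound E cells and 303 CPM in DMSO cells. PHGDH, the first enzyme of that pathway, fell by 1.18 ± 0.0279, and the serine carrier SLC1A4 by 1.5 ± 0.0416. SHMT2, the mitochondrial enzyme that turns serine into glycine, fell by 1.00 ± 0.0309, while its cytosolic counterpart SHMT1 rose by 0.22 ± 0.0366. The largest edgeR adjusted p of these 5 was 4.00e-06, for SHMT1.

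Enzymes that build lipids from serine were called about as often as all tested genes, 38.1% against 38.3%. Of 25 listed genes of phosphatidylserine and sphingolipid synthesis 21 could be tested, 4 rose, 4 fell and 13 were not called, with a median log2 fold change of -0.01. PTDSS1, which makes phosphatidylserine, fell by 0.44 ± 0.0311 (SE) on the log2 scale (edgeR adjusted p = 8.11e-15), and PTDSS2, which makes it from another substrate, was at -0.04 ± 0.0560 and not called (edgeR adjusted p = 0.622). SPTLC3, a low-count subunit of serine palmitoyltransferase, fell by 0.96 ± 0.257 (edgeR adjusted p = 0.00259), while the main subunits SPTLC1 (-0.05) and SPTLC2 (-0.01) were not called. ORMDL3 and ORMDL2, which hold that enzyme back, rose by 0.21 ± 0.0303 and 0.34 ± 0.0983 (edgeR adjusted p = 5.31e-07 and 0.00548).

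Genes of other proteins that move phospholipids across membranes were called in 33.3% of cases, against 38.3% of all tested genes. Of 26 listed scramblases and flippases 21 could be tested, 4 rose, 3 fell and 14 were not called, with a median log2 fold change of -0.01. Without compound E replicate 3, 5 rose and 1 fell. The flippase gene ATP8B2 rose by 0.34 ± 0.0339 (SE) on the log2 scale and TMEM30A, the common flippase subunit, by 0.18 ± 0.0412 (edgeR adjusted p = 1.13e-10 and 0.000641). ATP10A, another flippase gene, fell by 0.44 ± 0.105 (edgeR adjusted p = 0.00075). The scramblase genes ANO6 (-0.02) and XKR8 (-0.02) were not called. No listed gene in this group or in lipid synthesis was called lower by at least 2-fold. Among all 16926 tested genes, only 446 were called lower by at least 2-fold, so nothing is read from the lack of such calls.

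Genes of other retroviral restriction factors were called in 36.8% of cases, near the 38.3% of all tested genes. Of 23 listed genes 19 could be tested, 3 rose, 4 fell and 12 were not called, with a median log2 fold change of -0.04. Without DMSO replicate 1, 4 rose and 2 fell. MX1 rose by 0.57 ± 0.0674 (SE) on the log2 scale and MX2, which blocks nuclear entry of HIV, by 0.16 ± 0.0325 (edgeR adjusted p = 4.60e-09 and 0.000145). APOBEC3C, a cytidine deaminase, fell by 0.37 ± 0.0567 and TRIM22, a ubiquitin ligase, by 0.30 ± 0.0529 (edgeR adjusted p = 1.09e-06 and 1.54e-05). SAMHD1, which depletes deoxynucleotides, was at 0.79 ± 0.343 with few counts and was not called (edgeR adjusted p = 0.0681), and BST2, the tetherin gene, was at 0.06 ± 0.0431 (0.298). Among the 19 tested genes 0 were called lower by at least 2-fold, beside only 446 of all 16926 tested genes. Such calls were rare over all genes, so nothing is read from the 0. SERINC5, of a family proposed with this contrast known, was 3.05-fold lower and SERINC3 1.10-fold lower. That difference between SERINC5 and the list was not tested.

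The endocytic machinery through which Nef acts on SERINC5 was examined as well. Of 18 listed genes of AP-2 and clathrin endocytosis 16 could be tested, 3 rose, 5 fell and 8 were not called, with a median log2 fold change of -0.03. These 8 of 16 called stand beside 38.3% of all tested genes. AP2M1, the medium subunit of AP-2, rose by 0.20 ± 0.0289 (SE) on the log2 scale, CLTB and CLTC, the clathrin light chain b and heavy chain, by 0.27 ± 0.0476 and 0.14 ± 0.0287, and DNM1, a dynamin that cuts vesicles off, fell by 0.40 ± 0.0468 (largest edgeR adjusted p of the 4, 0.000101). With DESeq2, and with edgeR without DMSO replicate 3 or without compound E replicate 1, the number called was 5 instead of 8, with 3 higher and 2 lower.

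**Figure D4:**
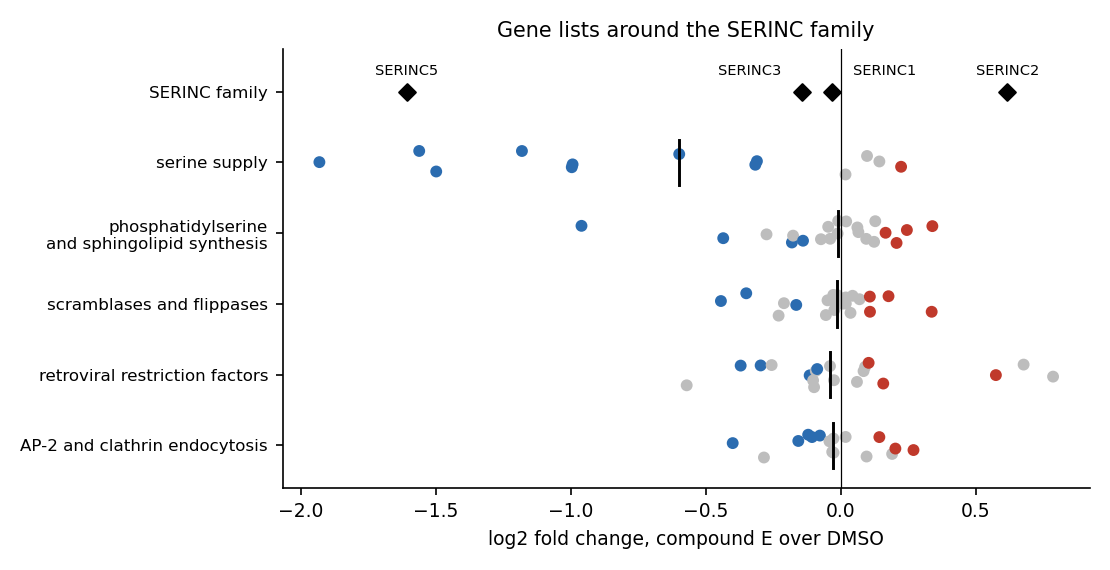
Log2 fold change of compound E over DMSO for the tested genes of 5 lists (circles: red called higher, blue called lower, grey not called; black bar, the list's median) and for the 4 tested SERINC genes (black diamonds). The serine supply list has its median at -0.60, the other 4 lists have medians from -0.04 to -0.01.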

How the data were processed

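RNA was measured in 6 MOLT-3 libraries, grouped by the treatment in their titles. The authors' gene counts were used as deposited. In each library, the deposited FPKM values equal the count over the gene's length and over 1 scaling value. This was tested only on genes with higher counts. The submitters' processing notes name HISAT2 2.0.5, featureCounts 1.5.0-p3 and DESeq2 1.16.1; no source used here states the build or whether counting used the strand. All 58735 genes matched GENCODE release 29 (GRCh38) in position, strand and name.

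Counts were filtered with filterByExpr, scaled by TMM and tested with edgeR 4.0.16 in R 4.3.3, with treatment as the only term and Benjamini-Hochberg adjustment over 16926 genes. SE is the log2 fold change over the root of the F statistic. The procedure was tested on simulated data. Log2 values were computed here. Any 2 replicates differed by more than sampling noise, with chi-square per degree of freedom from 1.65 to 2.79.

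The members, the 5 gene lists and the motifs were chosen with earlier results of these data known. Named from each list are up to 4 called genes with the smallest p and the largest rise and fall at 5 CPM or more; other list members named were chosen after their values were seen. A few genes that this rule names are not reported here. Alternatives were other scalings, filters, DESeq2 1.42.0, limma 3.58.1 (voom, and log2 FPKM with pseudocounts of 1 and 0.1), a replicate block and each library left out. Figures were drawn with matplotlib 3.10.9.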

Additional observations from a re-analysis of the deposited data

How the results depend on the processing

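The log2 fold changes of the 4 tested members kept their sign under all 17 alternatives. They ranged from -1.64 to -1.51 for SERINC5, 0.53 to 0.65 for SERINC2, -0.16 to -0.13 for SERINC3 and -0.05 to -0.01 for SERINC1. With limma on log2(FPKM + 1), filtered or not, SERINC5 was at -1.51 and SERINC2 at 0.53, a scale that understates differences of low values. SERINC3 was at -0.16 with upper-quartile scaling and with the filter of 5 CPM in 3 libraries. With limma on unfiltered log2(FPKM + 1) 2128 genes were called higher and 1874 lower, against 3206 and 3278 as reported, and the numbers called fell to 2 for phosphatidylserine and sphingolipid synthesis, 4 for scramblases and flippases, 4 for restriction factors and 5 for AP-2 and clathrin. With filtered FPKM, at either pseudocount, they were 4 for the lipid synthesis list and 5 for AP-2 and clathrin, and DESeq2 also gave 5 for AP-2 and clathrin. Leaving out 1 library gave 5 to 8 for AP-2 and clathrin. With the filter of 5 CPM fewer neighbours were tested and 2 were called. Of 757 values of 45 single genes outside the family, 19 lost their call, 2 gained one and 4 reversed. The reversed ones were FABP3 (0.11 without compound E replicate 2), SERF2 (-0.0098 without DMSO replicate 1) and HYPK (0.18 without DMSO replicate 1 and 0.00095 without compound E replicate 3), with 0 of these called. Leaving out 1 library gave -0.23 to 0.11 for FABP3, -0.0098 to 0.087 for SERF2 and -0.25 to 0.18 for HYPK. The replicate numbers gave no sign of pairing, which does not exclude it. Deviations of same-numbered libraries correlated at -0.0191 to 0.0103, and those of libraries with different numbers at -0.0202 to 0.0207. With the replicate block SERINC5 was at -1.61, SERINC2 at 0.62, and 3019 genes were called higher and 3119 lower. Except where values are named here, the cause was not tested. Depth limits the tested neighbours of SERINC5, at 6 to 50 counts per library. SERINC4, whose exon bases are all shared with other genes, cannot be assessed from these tables.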
